A study of Mus musculus with 6 samples.

Results

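Transcripts of 8 genes of glucose and lactate transport were compared in C2C12 cells, an immortalized mouse myoblast line that forms myotubes in low serum. The genes were taken by name and are 8 of the 17558 genes of the deposited table: the glucose transporters Slc2a1, Slc2a3, Slc2a4, Slc2a8 and Slc2a10, the lactate transporters Slc16a1 and Slc16a3, and Bsg. Cells of all 3 groups stably carried a short hairpin RNA and were harvested 48 h after the change from fetal bovine serum to horse serum with insulin, transferrin and selenium. The shScr group carried a scrambled hairpin with no target (genotype label WT), the ShPkm1 group a hairpin against the Pkm1 isoform of pyruvate kinase, and the ShPkm2 group a hairpin against its Pkm2 isoform. Each group had 2 libraries of total RNA. The labels do not say whether these were separate cultures or how many clones a line held, so p-values measure only the spread between these libraries, which may be technical.

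Glucose enters cells through the GLUT proteins, which the Slc2a genes encode and which let the sugar run down its gradient. In skeletal muscle GLUT1 (Slc2a1) serves basal uptake, while GLUT4 (Slc2a4), a product of differentiated fibres and fat, waits in vesicles until insulin or contraction moves it to the surface. Lactate crosses the membrane together with a proton through the monocarboxylate transporters MCT1 (Slc16a1) and MCT4 (Slc16a3), of which MCT4 is known for export from glycolytic fibres. Both need basigin, the Bsg product, as the chaperone that takes them to the surface.

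Libraries held between 18216896 and 19796036 estimated counts, and replicates correlated across genes at r = 0.988 to 0.994 in log2 CPM. The Pkm1 isoform was lower than in shScr in both hairpin groups (log2 fold change -1.66, adjusted p = 0.00272 in ShPkm1, and -1.58, adjusted p = 0.00124 in ShPkm2). The Pkm2 isoform was not lower in the libraries labelled ShPkm2, at 0.63 with an adjusted p of 0.0656, so a direction given for them belongs to that label and not to a measured loss of Pkm2. Markers of differentiated muscle, summed over 8 genes, stood at 35334 and 23804 CPM in shScr, 8010 and 9245 CPM in ShPkm1, and 183 and 186 CPM in the libraries labelled ShPkm2. The 5 myoblast markers, none at 0 in any library, summed to 6348 and 5966 CPM in shScr, 3974 and 4468 CPM in ShPkm1, and 1594 and 1534 CPM in ShPkm2, with 3 called lower in ShPkm1, and 4 lower and 1 (Myf5) higher in ShPkm2. The 4 proliferation markers summed to 224 and 264 CPM in shScr, 486 and 499.99 CPM in ShPkm1 and 1459 and 1315 CPM in ShPkm2. The part of these differences in the transporter results was not tested. Adipocyte, endothelial and epithelial markers each summed to at most 1.19 CPM in a library and immune markers to at most 4.63 CPM. In bulk RNA, fewer cells of a type and less RNA per cell cannot be told apart.

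On GRCm38.p6 the annotation places Slc2a1 at chr4:119108745-119137330, Slc2a3 at chr6:122727809-122802363, Slc2a4 at chr11:69942286-69948216, Slc2a8 at chr2:32972981-32982083 and Slc2a10 at chr2:165503897-165519917. Slc16a1 lies at chr3:104638664-104658462, Slc16a3 at chr11:120948484-120959000 and Bsg at chr10:79704358-79711979. Promoters of Slc2a1 and Slc16a1 are shown because these genes were both higher in the libraries labelled ShPkm2, and that of Slc16a3 because it is the other lactate transporter. Each window runs from 250 bases before to 50 bases after an annotated start, on the plus strand of GRCm38.p6 (RefSeq), and 5 of the 8 genes had a window in the table used. The windows are chr4:119108495-119108794 for Slc2a1, chr3:104638414-104638713 for Slc16a1 and chr11:120948817-120949116 for Slc16a3, whose start lies inside the gene's annotated span. Capitals mark matches, on either strand, to the E-box CANNTG and its form CACGTG, which Myc and Usf proteins bind, and to ACGTG and GCGTG, core letters of elements bound by hypoxia-inducible factors.
Slc2a1: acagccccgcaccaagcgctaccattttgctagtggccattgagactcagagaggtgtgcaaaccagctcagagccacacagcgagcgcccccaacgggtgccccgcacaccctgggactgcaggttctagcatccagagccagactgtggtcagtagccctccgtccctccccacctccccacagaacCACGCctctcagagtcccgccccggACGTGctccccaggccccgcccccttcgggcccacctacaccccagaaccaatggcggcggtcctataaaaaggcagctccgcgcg
Slc16a1: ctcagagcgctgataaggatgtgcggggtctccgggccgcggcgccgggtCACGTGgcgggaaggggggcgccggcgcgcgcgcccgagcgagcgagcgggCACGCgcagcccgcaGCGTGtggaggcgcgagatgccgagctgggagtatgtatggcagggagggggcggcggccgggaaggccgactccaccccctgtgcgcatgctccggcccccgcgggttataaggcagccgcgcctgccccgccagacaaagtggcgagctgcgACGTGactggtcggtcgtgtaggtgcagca
Slc16a3: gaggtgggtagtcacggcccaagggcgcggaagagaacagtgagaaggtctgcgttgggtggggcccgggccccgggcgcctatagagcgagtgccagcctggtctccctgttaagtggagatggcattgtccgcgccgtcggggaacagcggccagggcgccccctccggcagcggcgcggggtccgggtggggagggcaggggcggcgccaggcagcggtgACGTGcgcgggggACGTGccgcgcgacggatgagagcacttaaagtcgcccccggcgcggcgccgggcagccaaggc

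In the Slc2a1 window ACGTG began 36 bases before the start site (position -36) and GCGTG, as CACGC, at position -61. The Slc16a1 window held a CACGTG at position -200, which is also a CANNTG and an ACGTG on both strands, a further ACGTG at position 21, and GCGTG at positions -149 and -134. In the Slc16a3 window ACGTG began at positions -27 and -14. Of all 32851 promoter windows in the table, 72.3% held CANNTG, 7.15% CACGTG, 19.6% ACGTG and 32.4% GCGTG. The 3 windows had a GC content of 65.3%, 73.7% and 73.3%, against a median of 52.7% over all windows. The 5 windows were those of Slc2a1, Slc2a8, Slc2a10, Slc16a1 and Slc16a3, and none held the MEF2 element, which 0.557% of all windows held. Slc2a3, Slc2a4 and Bsg had no window, so their promoters were not searched. These are matches of letters only.

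Levels of different genes were compared in TPM, which is scaled to transcript length. Bsg stood far above the rest, with 1727 and 1733 TPM in shScr, 1586 and 1532 TPM in ShPkm1, and 1342 and 1303 TPM in ShPkm2. Slc2a1 was the second in every group, at 71.1 ± 7.18 TPM in shScr, 77.1 ± 4.98 in ShPkm1 and 127 ± 0.969 in ShPkm2 (mean ± SD, n = 2). Slc16a3 followed at 25.8 ± 2.06, 41.5 ± 0.608 and 42.5 ± 0.495 TPM, then Slc16a1 at 13.96 ± 2.06, 15.8 ± 0.757 and 30.3 ± 1.41 TPM, and Slc2a8 at 11.5 ± 2.62, 10.5 ± 1.29 and 8.20 ± 0.488 TPM. This order of the first 5 genes was the same in all 3 groups, except that Slc16a1 and Slc2a8 overlapped in the shScr libraries.

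The other glucose transporters compared here, Slc2a4, Slc2a10 and Slc2a3, were near the bottom of the scale in all 6 libraries. Slc2a6, a further gene of the family, is described with the gene lists below and is left out of these ranks. It had 55.35 and 64.88 TPM in shScr, 15.23 and 15.98 TPM in ShPkm1, and 0.96 and 0.97 TPM in ShPkm2. Slc2a4 had 3.02 and 1.17 TPM in shScr, 0.83 and 0.70 TPM in ShPkm1, and 0.89 and 0.94 TPM in ShPkm2. Slc2a10 had 0.17 and 0.05 TPM in shScr, 1.75 and 1.52 TPM in ShPkm1, and 0.16 and 0.15 TPM in ShPkm2. Slc2a3 had 0.17 and 0.13 TPM in shScr, 0.91 and 0.61 TPM in ShPkm1, and 0.06 and 0.11 TPM in ShPkm2. Slc2a4 thus ranked sixth in shScr and in ShPkm2, while Slc2a10 took that place in ShPkm1. Neighbours whose libraries overlapped were Slc2a3 and Slc2a10 in shScr, and Slc2a4 and Slc2a3 in ShPkm1.

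**Figure D1:**
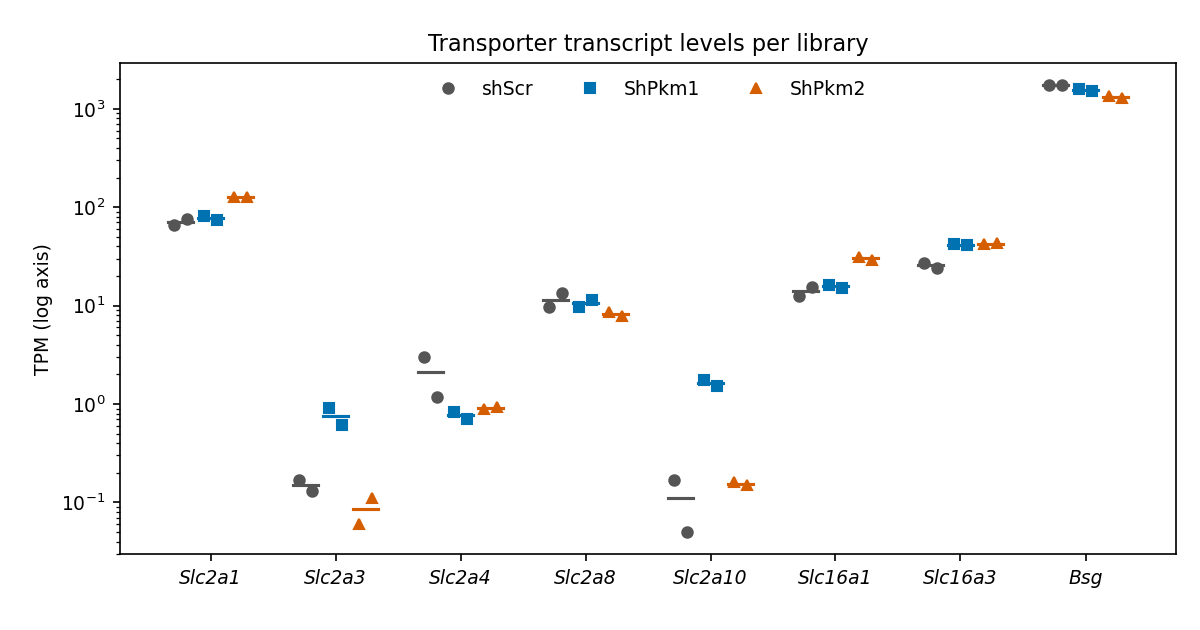
TPM on a log axis of each of the 8 genes in the 6 libraries, 1 point per library, coloured by group. Bsg lies between 1303 and 1733 TPM, Slc2a3, Slc2a4 and Slc2a10 lie at or under 3.02 TPM, and the points of Slc2a10 and Slc2a3 in ShPkm1 sit apart from those of the other groups.

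The libraries were tested gene by gene with edgeR, on 12643 genes, and a gene is called higher or lower at an adjusted p under 0.05. Against shScr, 7 of the 8 genes were called in ShPkm1, 3 higher and 4 lower, where 63.1% of all tested genes were called (31.8% higher and 31.4% lower). Of the 8, 5 were called in the ShPkm2 group against shScr, 2 higher and 3 lower, beside 68.0% of all tested genes (33.9% higher and 34.2% lower). In the direct comparison of ShPkm2 with ShPkm1, 6 were called, 2 higher and 4 lower, beside 53.0% of all tested genes (25.7% higher and 27.3% lower). Libraries of the groups compared did not overlap for 8, 7 and 7 of the 8 genes, and for 81.0%, 83.9% and 79.8% of all tested genes. The median log2 fold change of the 8 genes was -0.24, -0.39 and -0.18 in these 3 comparisons, against -0.00, 0.01 and 0.00 over all tested genes. Slc2a3 and Slc2a10 passed the filter on low counts only through the ShPkm1 libraries, where they are high, and so had to differ: they are 2 of the 3 higher calls in ShPkm1 against shScr and 2 of the 4 lower calls in the direct comparison. Without these 2 genes the medians were -0.39, -0.29 and 0.02. Among the 5 genes whose mean was 50 counts or more, 4 were called in each comparison, 1 higher and 3 lower in ShPkm1 against shScr, and 2 higher and 2 lower in each of the others. With so few genes these counts are not read as a result about the set. Both comparisons with shScr use the same control libraries.

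All 8 genes passed the filter on low counts. Calls also moved with the scaling. The log2 fold changes given here use trimmed mean of M values (TMM) factors, under which the median gene did not move. With library totals alone the median of all tested genes moved to 0.19 in ShPkm1 and 0.33 in ShPkm2 against shScr and to 0.14 in the direct comparison. The share of calls that were higher went from 50.3% to 65.8%, from 49.8% to 69.3% and from 48.4% to 61.3%.

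**Figure D2:**
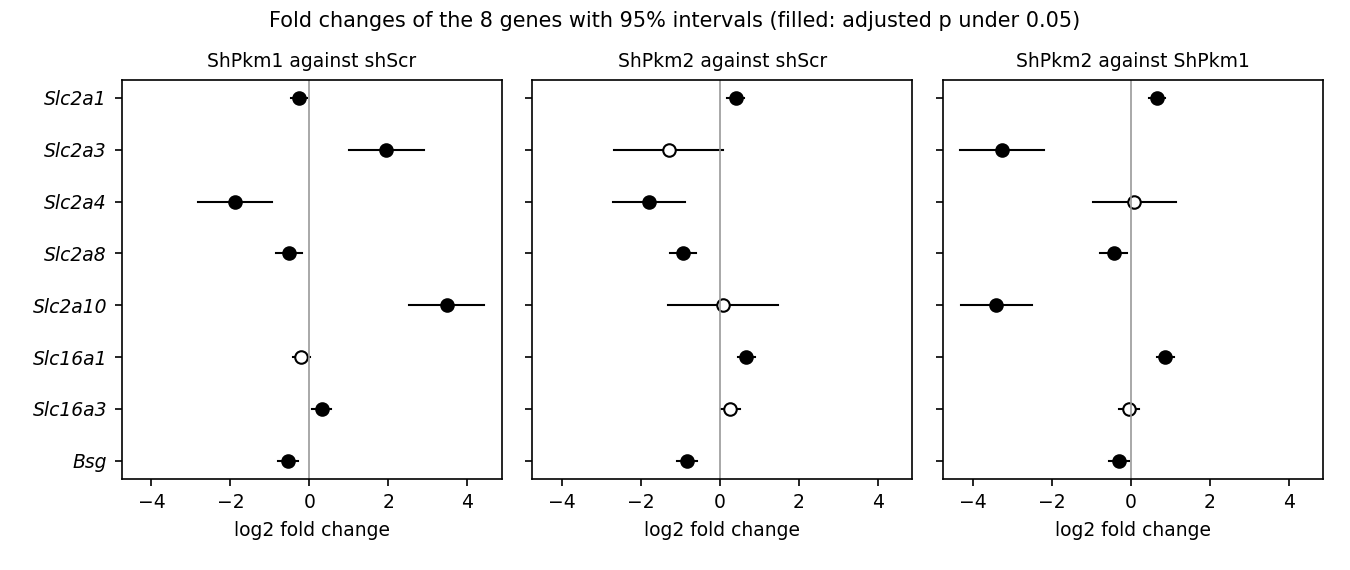
Log2 fold change of the 8 genes in the 3 comparisons (points), with 95% intervals from the edgeR fit (lines); filled points passed the threshold of 0.05 on the adjusted p. Slc2a10 and Slc2a3 are highest in ShPkm1 against shScr at 3.47 and 1.95, and the intervals of Slc2a1, Slc16a1, Slc16a3 and Bsg are the narrowest. Slc2a10 and Slc2a3 passed the filter on low counts only through the ShPkm1 libraries. They had to differ from ShPkm1, so their filled points are not read as tests.

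Slc2a1, which encodes the basal glucose transporter GLUT1, was highest in the libraries labelled ShPkm2. It had 129 and 131 CPM in shScr, 110 and 106 CPM in ShPkm1, and 165 and 176 CPM in ShPkm2, so that no groups overlapped. The rise in ShPkm2 over shScr was 1.31-fold (95% interval 1.14 to 1.51, log2 fold change 0.39, SE 0.0942, adjusted p = 0.00232), and over ShPkm1 it was 1.58-fold (1.37 to 1.82, adjusted p = 5.76e-05). In ShPkm1 Slc2a1 fell by 0.27 on the log2 scale against shScr (SE 0.0949, adjusted p = 0.0236). That small fall depended on the scaling and on single libraries. It was -0.08 with library totals (adjusted p = 0.542), -0.07 on log2(FPKM + 1) (limma, adjusted p = 0.496) and 0.12 on log2(TPM + 1) (limma, adjusted p = 0.358), and the adjusted p was 0.0935 and 0.141 without either ShPkm1 library and 0.0559 and 0.0554 without either ShPkm2 library. Relative to the median of all tested genes it was -0.27 with TMM, -0.27 with library totals and -0.20 on the TPM scale.

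The transcript NM_011400.3 held between 98.7% and 100% of the Slc2a1 counts in each library. Fitted among 33433 transcripts, it was 0.43 higher in ShPkm2 than in shScr (edgeR, adjusted p = 0.0225) and 0.67 higher than in ShPkm1 (adjusted p = 0.0126), with a value of -0.24 in ShPkm1 against shScr that did not pass (adjusted p = 0.120).

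Slc2a4, the insulin-responsive GLUT4, was lower in both hairpin groups than in shScr, from few counts. The libraries held 98 and 38 counts in shScr, 22 and 21 in ShPkm1, and 25 and 25 in ShPkm2. In CPM these are 6.21 and 2.15, 1.17 and 1.06, and 1.18 and 1.19. The first shScr library stands well above the second, and both lie above all 4 hairpin libraries.

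Against shScr, the log2 fold change of Slc2a4 was -1.88 in ShPkm1 (SE 0.431, adjusted p = 0.00194) and -1.80 in ShPkm2 (SE 0.421, adjusted p = 0.00192). Without shScr replicate 1 the values were -0.94 and -0.85 and without shScr replicate 2 they were -2.47 and -2.38, with all adjusted p-values over the libraries left out at most 0.0371. ShPkm2 and ShPkm1 did not differ detectably, at 0.09 with a 95% interval of -0.97 to 1.14 (adjusted p = 0.895). The same shScr library was also the higher of the pair for summed differentiated muscle markers, as given above, and for Mef2c, a gene of the MEF2 family of muscle transcription factors, whose members bind the Slc2a4 promoter. Mef2c had 23.3 and 5.48 CPM in shScr. Of the same family, Mef2a had 272 and 255 CPM and Mef2d 352 and 347 CPM there, without such a gap. The part of these differences in the Slc2a4 result was not tested.

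By transcript, the curated Slc2a4 transcript NM_009204.2 had 51.0 and 21.9 estimated counts in shScr, 7.04 and 12.4 in ShPkm1 and 0 in either ShPkm2 library. The rest went to predicted transcripts of the same gene, which took 100% of the Slc2a4 counts in both ShPkm2 libraries and 42.4% to 48.0% in shScr. In ShPkm2 against shScr this transcript was called lower (edgeR, adjusted p = 0.0375), and it was not called in ShPkm1 (adjusted p = 0.324). Estimates for transcripts that share most of their sequence are uncertain at such counts.

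Slc2a8 encodes GLUT8, which resides mainly on intracellular membranes. It had 15.2 and 18.6 CPM in shScr, 10.5 and 13.2 CPM in ShPkm1, and 8.94 and 8.68 CPM in ShPkm2, a descending order without overlap. In ShPkm2 against shScr the log2 fold change was -0.94, with a 95% interval of -1.28 to -0.61 (SE 0.155, adjusted p = 0.000120). This call held under all 16 other settings tried.

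In ShPkm1 against shScr Slc2a8 stood at -0.51 on the log2 scale (SE 0.152, adjusted p = 0.0104), and in ShPkm2 against ShPkm1 -0.43 (SE 0.157, adjusted p = 0.0330). The first was lost without ShPkm1 replicate 1 (-0.34, adjusted p = 0.139) with library totals (-0.32, adjusted p = 0.102), and with limma on log2(FPKM + 1) (-0.27, adjusted p = 0.126), log2(FPKM + 0.1) (-0.31, adjusted p = 0.124) and log2(TPM + 1) (-0.11, adjusted p = 0.594). The second was lost with DESeq2 (adjusted p = 0.0808), with library totals (adjusted p = 0.141), on the same 3 FPKM and TPM scales (adjusted p = 0.175, 0.164 and 0.134), and without ShPkm1 replicate 2 (-0.26, adjusted p = 0.297) or either ShPkm2 library (adjusted p = 0.104 and 0.130). So the difference between the ends of this order held in every setting, and those of the middle group did not.

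Slc2a10, which encodes the intracellular family member GLUT10, and Slc2a3, the high-affinity transporter GLUT3 best known from neurons, had their highest counts in ShPkm1, few as these were. Slc2a10 had 7 and 2 counts in shScr, 60 and 58 in ShPkm1, and 6 and 6 in ShPkm2. Since both genes passed the filter only through the ShPkm1 libraries, their differences from ShPkm1 are given as a description, with no p. For Slc2a10 the fold of ShPkm1 over shScr was 11.1 (95% interval 5.71 to 21.6), or 3.47 on the log2 scale, and 2.77 to 4.68 when each library was left out. Against ShPkm1, ShPkm2 stood at -3.40, and its libraries overlapped those of shScr (0.07, 95% interval -1.31 to 1.46, adjusted p = 0.927).

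Slc2a3 had 8 and 6 counts in shScr, 36 and 27 in ShPkm1, and 2 and 5 in ShPkm2. The log2 fold change of ShPkm1 over shScr was 1.95 (SE 0.438), and that of ShPkm2 over ShPkm1 was -3.25 (SE 0.494), with -2.75 to -4.04 when each library was left out. Both ShPkm2 libraries also lay under both shScr libraries, with a value of -1.30 that did not pass (95% interval -2.69 to 0.09, adjusted p = 0.0879) and was -0.79 and -2.08 without ShPkm2 replicate 1 and 2. As transcripts, the log2 fold change of ShPkm1 over shScr was 2.20 for NM_011401.4 of Slc2a3 (SE 1.66) and 3.48 for the only Slc2a10 transcript (SE 0.968), with larger errors than for the genes.

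The summed level of immune cell markers was also highest in the ShPkm1 libraries. Over the 3 measured it came to 1.14 and 1.98 CPM in shScr, 4.63 and 3.94 CPM in ShPkm1, and 1.98 and 2.58 CPM in ShPkm2. Lyz2, of macrophages and granulocytes, had 0 and 3 counts in shScr, 16 and 15 in ShPkm1, and 1 and 0 in ShPkm2, and Csf1r, the macrophage growth factor receptor gene, 9 and 11, 32 and 32, and 2 and 5. Both reached the filter's minimum of 10 counts in both libraries of a group only in ShPkm1, so no call is given for them. Cd68, a macrophage lysosome gene, had 9 and 21 counts in shScr, 39 and 31 in ShPkm1, and 39 and 49 in ShPkm2. The part of such cells in the Slc2a3 and Slc2a10 results was not tested.

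Summed over the 5 Slc2a genes compared here, transcripts came to 79.0 and 90.9 TPM in shScr, 93.8 and 87.9 TPM in ShPkm1, and 136 and 137 TPM in ShPkm2. Slc2a1 held 83.5% and 83.8% of that sum in shScr, 86.01% and 83.75% in ShPkm1, and 92.9% and 93.4% in ShPkm2. Slc2a8 was the next with 12.3% and 14.7%, then 10.27% and 13.03%, then 6.26% and 5.72%. The share of Slc2a4 was 3.82% and 1.29% in shScr and between 0.652% and 0.885% in the hairpin libraries. In ShPkm1 the share of Slc2a10 reached 1.87% and 1.73% and that of Slc2a3 0.971% and 0.694%. Within these 5 genes the larger sum in ShPkm2 was thus almost all Slc2a1, while shScr and ShPkm1 overlapped in their sums. Slc2a6, which is not among them, had 55.35 and 64.88 TPM in shScr, 15.23 and 15.98 TPM in ShPkm1, and 0.96 and 0.97 TPM in ShPkm2. It was thus highest in shScr and lowest in ShPkm2. The sums and shares therefore hold for these 5 genes only and not for all glucose transporters. In TMM-scaled CPM the sums of these 5 genes were 151 and 153 in shScr, 127 and 124 in ShPkm1, and 176 and 186 in ShPkm2.

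Slc16a1 encodes MCT1, the widely expressed lactate transporter. It had 42.5 and 46.4 CPM in shScr, 38.7 and 38.2 CPM in ShPkm1, and 71.0 and 70.0 CPM in ShPkm2, so the ShPkm2 libraries stood alone at the top. In ShPkm2 it rose 1.59-fold over shScr (95% interval 1.37 to 1.83, log2 fold change 0.67, SE 0.0972, adjusted p = 4.33e-05) and 1.83-fold over ShPkm1 (1.59 to 2.12, log2 fold change 0.88, SE 0.0974, adjusted p = 6.05e-06). Both calls held under all 16 other settings. ShPkm1 against shScr gave -0.21 (95% interval -0.42 to 0.00, adjusted p = 0.0802), which passed only without shScr replicate 1 (-0.27, adjusted p = 0.0320) and was 0.17 on the TPM scale (limma, adjusted p = 0.294). All its counts came from the transcript NM_009196.4.

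Slc16a3, which encodes MCT4, was called higher in ShPkm1 and not in ShPkm2. It had 49.3 and 39.6 CPM in shScr, 53.6 and 56.3 CPM in ShPkm1, and 51.4 and 54.97 CPM in ShPkm2. All 4 hairpin libraries lay above both controls, and the hairpin groups overlapped each other. The rise in ShPkm1 was 1.24-fold (95% interval 1.04 to 1.47, log2 fold change 0.31, SE 0.115, adjusted p = 0.0327).

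For ShPkm2 against shScr the Slc16a3 fold was 1.20 (1.01 to 1.42, adjusted p = 0.0596), which did not pass. These calls changed with single libraries and with the scaling. Without shScr replicate 1 the ShPkm1 value was 0.47 and without shScr replicate 2 it was 0.16 (adjusted p = 0.226), without either ShPkm1 library the adjusted p was 0.0745 and 0.151, and DESeq2 gave 0.0549. Without shScr replicate 1 the ShPkm2 value was 0.43 (adjusted p = 0.000974) and without shScr replicate 2 it was 0.11, and it passed with library totals (0.59, adjusted p = 0.000305) and with limma on the FPKM and TPM scales (0.56 to 0.70, adjusted p at most 0.00081). ShPkm2 against ShPkm1 was -0.05 (95% interval -0.29 to 0.20, adjusted p = 0.750), with the sign turning to 0.08 under library totals. None of the 4 Slc16a3 transcripts tested was called, and the counts moved between 2 of them from library to library, with 30.8% to 65.6% on NM_001038653.1 and 21.5% to 62.3% on the predicted XM_011249321.2.

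**Figure D3:**
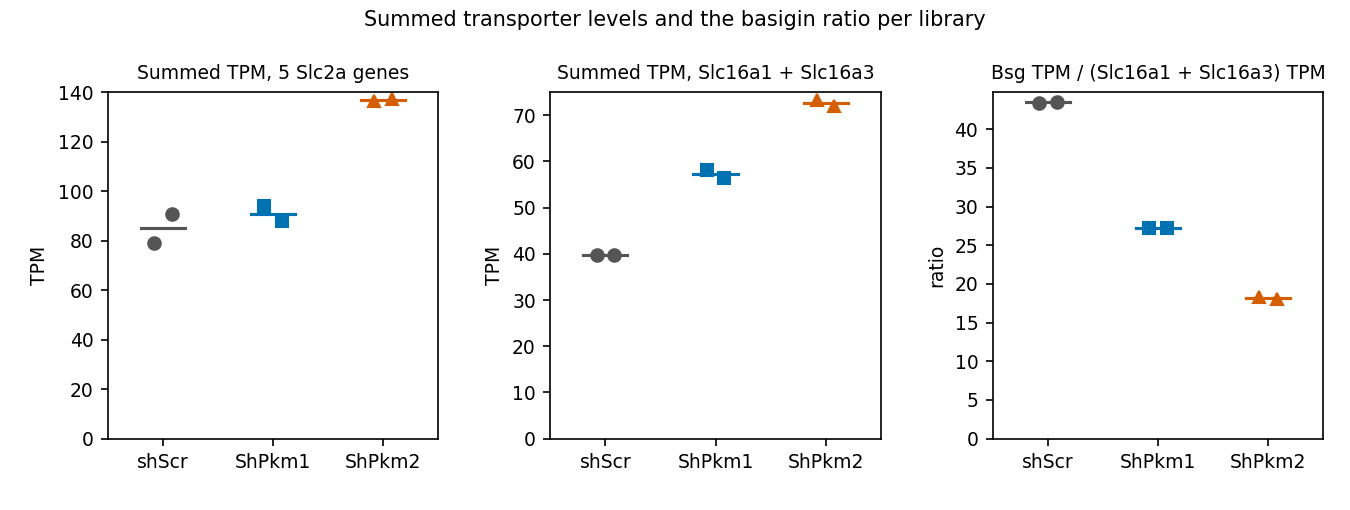
Per library, the summed TPM of the 5 Slc2a genes, the summed TPM of Slc16a1 and Slc16a3, and the ratio of Bsg to the sum of these lactate transporters, on linear axes from 0. The lactate transporter sum goes from 39.8 TPM in shScr to 73.4 and 72.1 TPM in ShPkm2, while the Bsg ratio goes from 43.4 and 43.6 to 18.3 and 18.1.

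Lactate transporter transcripts, Slc16a1 and Slc16a3 together, came to 39.8 TPM in each shScr library, 58.3 and 56.3 TPM in ShPkm1, and 73.4 and 72.1 TPM in ShPkm2. The groups did not overlap on this scale, on which the median of all tested genes also stood 0.31 higher in ShPkm1 and 0.36 higher in ShPkm2 than in shScr. In TMM-scaled CPM, which are not scaled to length, the sums were 91.8 and 86.04 in shScr, 92.2 and 94.5 in ShPkm1, and 122 and 125 in ShPkm2, so that shScr and ShPkm1 lay close together. The makeup of that sum differed between the hairpin groups. Slc16a1 had 0.458 and 0.633 times the TPM of Slc16a3 in shScr, 0.389 and 0.371 times in ShPkm1, and 0.742 and 0.683 times in ShPkm2. ShPkm1 thus held the lowest ratios and ShPkm2 the highest, with shScr between them.

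Bsg encodes basigin, the chaperone of both lactate transporters, and was lower in both hairpin groups than in shScr. It had 1797 and 1590 CPM in shScr, 1152 and 1173 CPM in ShPkm1, and 930 and 954 CPM in ShPkm2, with no overlap between any groups. In ShPkm1 the log2 fold change against shScr was -0.54 (95% interval -0.80 to -0.29, SE 0.118, adjusted p = 0.00134). In ShPkm2 it was -0.85 (-1.10 to -0.59, SE 0.118, adjusted p = 2.91e-05), a call that held under all 16 other settings. The difference between the hairpin groups was -0.30 (-0.56 to -0.05, SE 0.117, adjusted p = 0.0437). That last call was lost with library totals (-0.17, adjusted p = 0.182), on the FPKM and TPM scales (limma, adjusted p = 0.0712 to 0.198) and without any 1 of the 4 hairpin libraries (adjusted p = 0.128 to 0.198). In ShPkm1 the fall was also smaller on the TPM scale, at -0.15 (limma, adjusted p = 0.214).

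In TPM, Bsg stood at 43.4 and 43.6 times the sum of Slc16a1 and Slc16a3 in shScr, at 27.2 times in both ShPkm1 libraries, and at 18.3 and 18.1 times in ShPkm2. Ratios within a library do not depend on the scaling between libraries. They show unequal change, with Bsg in excess of its transporters in every library. More than 99.4% of the Bsg counts in each library came from NM_001077184.1, which was called lower in ShPkm1 (-0.51, edgeR adjusted p = 0.0360) and in ShPkm2 (-0.81, adjusted p = 0.00738) against shScr and not between the hairpin groups (-0.30, adjusted p = 0.141).

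**Figure D4:**
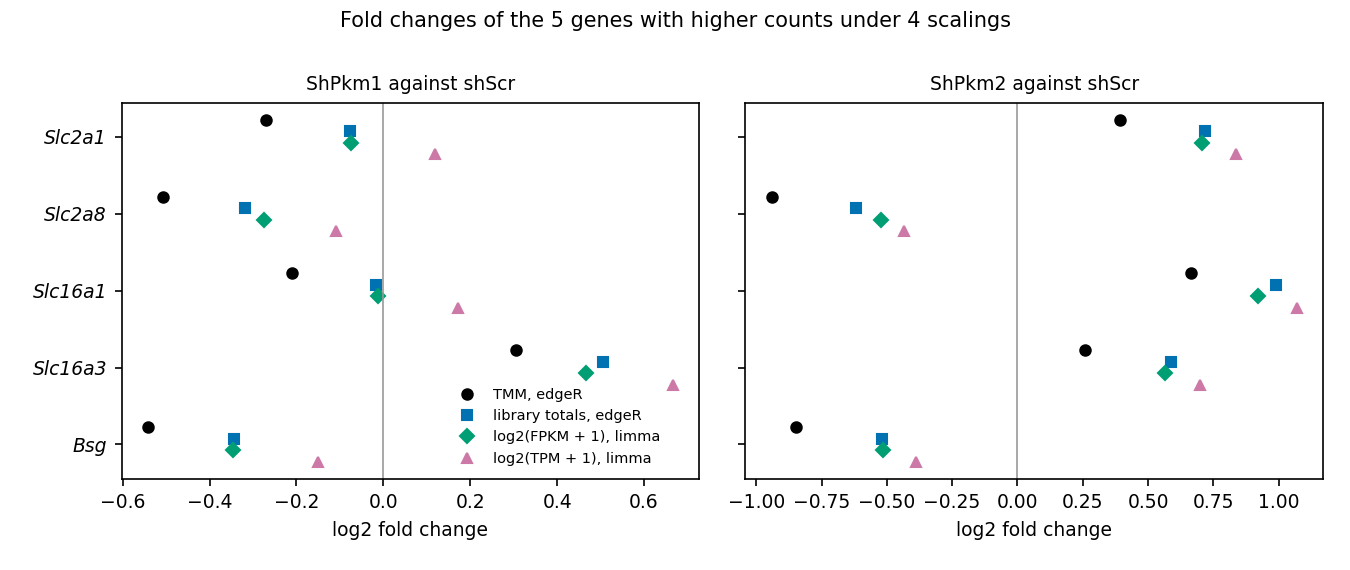
Log2 fold change against shScr of the 5 genes whose mean was 50 counts or more, under TMM and library totals (edgeR) and on log2(FPKM + 1) and log2(TPM + 1) (limma). In ShPkm2 the signs of all 5 genes are the same on all 4 scales, while in ShPkm1 Slc2a1 goes from -0.27 to 0.12 and Slc16a1 from -0.21 to 0.17.

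The genes whose pattern over the 6 libraries was nearest to each transporter were found by the root mean square distance of centred log2 CPM, among 10742 genes whose mean was 50 counts or more. For Slc2a1 these were Cstb, the protease inhibitor cystatin B, at 0.0226 and Erich1 at 0.0443. Cstb had 82.02 and 80.56 CPM in shScr, 69.2 and 66.8 in ShPkm1, and 107 and 110 in ShPkm2. For Slc16a1 they were Irf2bp2 at 0.0345 and Prdm4 at 0.0398, for Slc2a8 Emc9 at 0.0521 and Usf1 at 0.0690. For Slc16a3 they were the ribosomal protein gene Rpl7 at 0.0299 and Btf3 at 0.0328, and for Bsg the complex I subunit gene Ndufs4 at 0.0251 and Wdr45b at 0.0344. With 6 libraries in 3 groups, many genes lie close to any such pattern.

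Other genes of glucose and lactate handling were taken from 9 lists with 91 genes, of which 65 were tested. In ShPkm1 against shScr 22 were higher, 27 lower and 16 not called, and in ShPkm2 against shScr 22 were higher, 26 lower and 17 not called. In ShPkm2 against ShPkm1 16 were higher and 22 lower. The shares called, 75.4%, 73.8% and 58.5%, stand beside the 63.1%, 68.0% and 53.0% over all tested genes. The median log2 fold changes were -0.15, -0.14 and -0.15. Of the 65 genes, 4 reached the minimum of 10 counts in both libraries of 1 group only, where they are high. Slc16a14, Trarg1 and Klf15 did so through ShPkm1, and Slc2a5 through shScr, with no call for Slc2a5 in ShPkm1 against shScr. For these 4 genes the filter favoured a difference from that group. Without these 4 genes 19 were higher and 27 lower in ShPkm1, 22 and 25 in ShPkm2, and 16 and 18 in the direct comparison. The shares called were 75.4%, 77.0% and 55.7%, beside 63.3%, 69.3% and 52.7% of the 11913 tested genes that reach the minimum in 2 groups or more. The medians of the list genes were then -0.16, -0.11 and -0.03. Lists are described by such counts only, on the TMM scale, and the median of several lists in ShPkm1 changed sign with library totals.

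**Figure D5:**
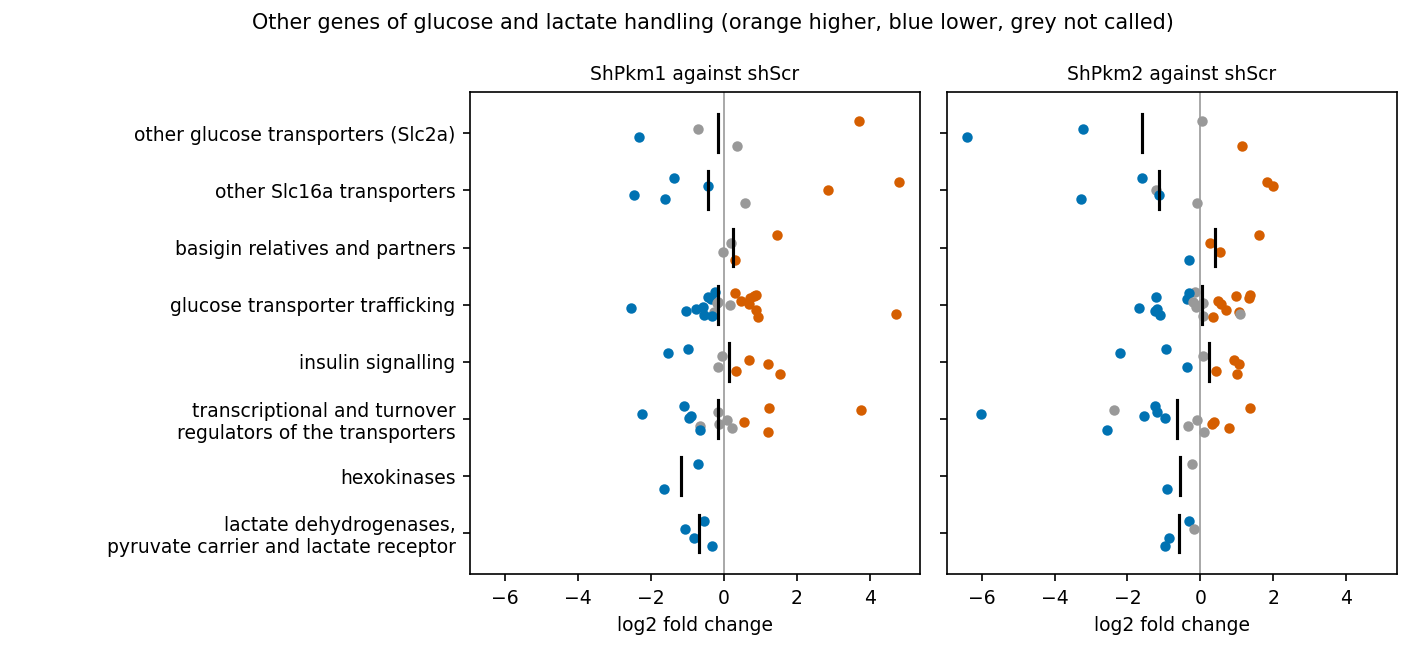
Log2 fold change against shScr of each tested gene of the 8 lists with tested genes, coloured by call, with the list's median as a bar. Slc2a6 and Mef2c are the lowest points in ShPkm2, at -6.39 and -6.02, and Slc16a11 at 4.82 is the highest in ShPkm1.

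Of 7 other Slc2a genes 4 were tested. In ShPkm1 1 was higher and 1 lower, and in ShPkm2 1 was higher and 2 lower (medians -0.17 and -1.59). One of the lower calls in ShPkm2 is Slc2a5, with 12 and 12 counts in shScr, 8 and 9 in ShPkm1, and 2 and 1 in ShPkm2, which passed the filter only through shScr, and without it the medians were 0.36 and 0.04. Slc2a6, which encodes the lysosomal family member GLUT6, had 88.7 and 91.5 CPM in shScr, 16.9 and 19.0 CPM in ShPkm1, and 1.04 and 1.10 CPM in ShPkm2. The log2 fold change was -2.33 in ShPkm1 (SE 0.107, adjusted p = 1.70e-09) and -6.39 in ShPkm2 (SE 0.153, adjusted p = 3.79e-12), the latter a larger change than that of any of the 8 transporter genes in ShPkm2. Slc2a13, which encodes a myo-inositol transporter and not a glucose carrier, had 0.507 and 0.904 CPM in shScr, 10.9 and 8.04 CPM in ShPkm1, and 0.941 and 0.525 CPM in ShPkm2, a rise of 3.71 in ShPkm1 (SE 0.323, adjusted p = 6.03e-07) with no call in ShPkm2 (0.04, adjusted p = 0.945). Of 9 sodium-coupled Slc5a transporters 6 were measured, all with too few counts to be tested, and the rest were not analysed here.

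Of 12 other Slc16a genes 7 were tested, with 2 higher and 4 lower in ShPkm1 (3 and 3 with library totals) and 2 higher and 3 lower in ShPkm2. Their medians were -0.44 and -1.14. One of the higher calls in ShPkm1 is Slc16a14, with 1 and 3 counts in shScr, 15 and 20 in ShPkm1, and 1 and 1 in ShPkm2, and without it the medians were -0.90 and -0.61. Slc16a10, which carries aromatic amino acids, was lower in both (-1.36, adjusted p = 0.000101, and -1.61, adjusted p = 1.83e-05). Slc16a11 rose by 4.82 in ShPkm1 (adjusted p = 2.29e-08) from 0.444 and 0.282 CPM to 10.7 and 9.91 CPM, and by 1.82 in ShPkm2 (adjusted p = 0.000843). The related Slc16a13 had 29.8 and 29.3 CPM in ShPkm2 against 6.53 and 8.25 CPM in shScr, a rise of 1.99 (adjusted p = 3.51e-08), and was lower in ShPkm1 (-0.44, adjusted p = 0.0286).

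All 4 relatives and partners of basigin were tested. In ShPkm1 2 were higher and none lower, and in ShPkm2 3 were higher and 1 lower (3 higher and 0 lower in each with library totals). Emb, which encodes embigin, the related chaperone that can also take MCT1 to the surface, had 11.3 and 12.9 CPM in shScr, 33.6 and 32.7 CPM in ShPkm1, and 35.4 and 38.3 CPM in ShPkm2. It rose by 1.45 in ShPkm1 (SE 0.117, adjusted p = 3.19e-07) and by 1.61 in ShPkm2 (SE 0.117, adjusted p = 5.64e-08), where Bsg was lower. In CPM, Emb remained far below Bsg in all 6 libraries, although CPM is not scaled to length. Ppia, the cyclophilin A gene whose product binds basigin, rose by 0.55 in ShPkm2 (adjusted p = 0.00191) and had -0.01 in ShPkm1 (adjusted p = 0.959). Ppib, the cyclophilin B gene, was 0.30 higher in ShPkm1 (adjusted p = 0.0253) and lower in ShPkm2 at -0.33 (adjusted p = 0.0149), the latter with a value of 0.13 on the TPM scale.

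Of 22 genes of glucose transporter trafficking, 9 were higher and 9 lower in ShPkm1 and 8 higher and 7 lower in ShPkm2 (10 and 5, and 11 and 5, with library totals). The 9 higher include Trarg1, with 1 and 0 counts in shScr, 20 and 17 in ShPkm1, and 1 and 2 in ShPkm2, which passed the filter only through ShPkm1. Sort1, which encodes the sortilin that sorts GLUT4 into its storage vesicles, was lower in both (-2.55, adjusted p = 8.58e-10, and -1.67, adjusted p = 1.01e-08). Tbc1d1, a Rab GTPase activator that holds these vesicles back, was lower in both as well (-1.04, adjusted p = 1.12e-06, and -1.23, adjusted p = 1.34e-07). Tbc1d4 of the same list went the other way in ShPkm2. It had 10.2 and 7.80 CPM in shScr, 6.60 and 8.19 CPM in ShPkm1, and 20.2 and 17.4 CPM in ShPkm2. Among those that rose were the retromer subunit gene Vps35 (0.94, adjusted p = 8.90e-06) and Stxbp3, the Munc18c gene (0.89, adjusted p = 2.59e-05), in ShPkm1, and both were also higher in ShPkm2 (0.35 and 0.71, adjusted p = 0.0130 and 0.000139). In ShPkm2 the largest rises were in Lnpep, whose product IRAP travels with GLUT4 (1.36, adjusted p = 1.02e-06), and the motor gene Myo5a (1.32, adjusted p = 4.39e-07), which were also higher in ShPkm1 (0.87 and 0.72, adjusted p = 0.000102 and 0.000145).

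Insulin signalling had 8 genes, all tested, with 4 higher and 2 lower in ShPkm1 and 4 higher and 3 lower in ShPkm2. Pik3r1, a regulatory subunit of PI3-kinase, rose by 1.53 in ShPkm1 (adjusted p = 1.49e-06) and 0.99 in ShPkm2 (adjusted p = 5.09e-05), and Irs2, an adaptor of the insulin receptor, by 1.21 (adjusted p = 4.06e-05) and 1.06 (adjusted p = 0.000102). Akt2, the kinase most tied to GLUT4 movement, had 769 and 669 CPM in shScr, 242 and 259 in ShPkm1, and 152 and 158 in ShPkm2 (-1.52, adjusted p = 1.13e-07, and -2.21, adjusted p = 1.70e-09). Akt1 was lower in both as well (-0.99, adjusted p = 3.10e-06, and -0.94, adjusted p = 2.97e-06). In ShPkm2 against ShPkm1 none of the 8 was higher and 2 were lower.

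Of 17 transcriptional and turnover regulators of the transporters 14 were tested, with 4 higher and 5 lower in ShPkm1 (6 and 4 with library totals) and 4 higher and 6 lower in ShPkm2. The 4 higher in ShPkm1 include Klf15, with 4 and 1 counts in shScr, 37 and 45 in ShPkm1, and 0 and 1 in ShPkm2, which passed the filter only through ShPkm1. Hif1a, whose product drives Slc2a1 in hypoxia, was 1.24 higher in ShPkm1 (adjusted p = 7.06e-07) and 1.36 higher in ShPkm2 (adjusted p = 1.69e-07). Txnip, whose product promotes removal of GLUT1 from the surface, had 69.0 and 68.1 CPM in shScr, 159 and 160 CPM in ShPkm1, and 73.1 and 74.6 CPM in ShPkm2. It rose by 1.22 in ShPkm1 (adjusted p = 1.92e-07), was not called in ShPkm2 against shScr (0.11, adjusted p = 0.325), and in the direct comparison was lower in ShPkm2 than in ShPkm1 (-1.11, adjusted p = 3.73e-07).

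Mef2c was lower in ShPkm1 (-2.25, adjusted p = 0.00112, and -0.88 with an adjusted p of 0.0033 without shScr replicate 1) and in ShPkm2 (-6.02, adjusted p = 6.67e-06, and -4.64 without shScr replicate 1). Between ShPkm2 and ShPkm1 Mef2c was lower as well (-3.77, adjusted p = 0.00249), and Slc2a4 did not differ detectably between these groups. Esrra, a nuclear receptor gene of mitochondrial metabolism, was lower in ShPkm1 (-1.08, adjusted p = 2.92e-06) and in ShPkm2 (-1.24, adjusted p = 4.74e-07). The catalytic subunits of the energy sensor AMPK moved apart in ShPkm2, with Prkaa1 higher (0.80, adjusted p = 1.05e-05) and Prkaa2 lower (-2.56, adjusted p = 6.67e-07). In ShPkm1 Prkaa2 was lower too (-0.65, adjusted p = 0.0144) and Prkaa1 was not called (0.22, adjusted p = 0.0680).

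The hexokinases trap glucose inside the cell, and 2 of 5 were tested. Hk2, the muscle form that insulin raises, had 98.6 and 85.8 CPM in shScr, 27.3 and 32.1 CPM in ShPkm1, and 52.5 and 45.8 CPM in ShPkm2. It was lower in ShPkm1 (-1.63, SE 0.120, adjusted p = 1.33e-07) and in ShPkm2 (-0.91, SE 0.116, adjusted p = 1.27e-05). Hk1 was lower in ShPkm1 (-0.70, adjusted p = 7.51e-05) and not called in ShPkm2 (-0.23, adjusted p = 0.0687). Both were higher in ShPkm2 than in ShPkm1, Hk2 by 0.73 (adjusted p = 0.000204) and Hk1 by 0.48 (adjusted p = 0.00196), where Slc2a1 was higher by 0.66.

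Of 7 genes for lactate dehydrogenases, the mitochondrial pyruvate carrier and the lactate receptor 4 were tested, of which 4 were lower in ShPkm1 and 3 in ShPkm2 (3 and 2 with library totals). Mpc1, a subunit of that carrier, was lower in ShPkm1 (-0.82, adjusted p = 6.79e-06) and in ShPkm2 (-0.85, adjusted p = 3.24e-06). Its partner subunit gene Mpc2 was lower in ShPkm2 (-0.96, adjusted p = 1.73e-05) and in ShPkm1 (-0.32, adjusted p = 0.0358). Ldhb, the lactate dehydrogenase form tied to lactate use, was lower in ShPkm1 (-1.06, adjusted p = 5.01e-05) and in ShPkm2 had -0.17 (adjusted p = 0.319).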

How the data were processed

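RNA of 6 C2C12 libraries, 2 for each of shScr, ShPkm1 and ShPkm2, was sequenced by the submitters. The sample titles give each library's group and number. Per the file headers, the deposited table lists 57920 transcripts and, for each library, their estimated counts, FPKM and TPM. In FPKM the authors corrected for transcript length and for depth, and in the deposited TPM for length with the same sum in each library. Per the submitters' processing notes, HISAT, StringTie, Bowtie, RSEM, DESeq2 and the build mm10 were used, with roles and versions not given in the sources used here. TRIzol was used for extraction, per the labels' protocols. A further 9 columns of group means were not used.

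Estimated counts were summed per NCBI gene (17558 genes, 17445 with a symbol in the RefSeq table) and rounded. Genes were filtered with filterByExpr (minimum count 10, total 15) and tested with edgeR 4.0.16 in R 4.3.3: TMM factors, 1 coefficient per group over all 6 libraries, the two-sided quasi-likelihood F-test and Benjamini-Hochberg adjustment over all 12643 genes. The SE is the absolute log2 fold change over the root of F, and 95% intervals use the fit's t distribution. Transcripts were fitted likewise. CPM values use the TMM-scaled library sizes. Alternatives used limma 3.58.1 on log2 of FPKM or TPM plus a pseudocount of 1 (and 0.1 for FPKM), DESeq2 1.42.0, other scalings and filters, fits without the third group, a block for the replicate number, and each library left out. Counts of calls restricted to genes that reach 10 counts in both libraries of 2 groups or more were added after the data were seen. On simulated counts for ShPkm1 against shScr 89.9% of 99 genes changed by 1 on the log2 scale were called, 36.8% of 95 changed by 0.5, and 10 of 11979 unchanged genes. Far fewer genes changed there than were called in the data, and all groups were drawn with the same spread. These rates therefore need not hold for the data. Replicates differed by more than counting noise (chi-square per degree of freedom 31.0 for shScr, 6.01 for ShPkm1, 6.67 for ShPkm2).

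The transporters and the 9 lists were chosen with earlier results of these data known. Of each list and comparison with shScr, up to 2 called genes with the largest rise and up to 2 with the largest fall are named, with a mean of at least 50 counts and groups that do not overlap. A gene that this rule names is not reported here. For each transporter with such a mean the 2 nearest genes are named. Predicted and clone symbols were left out there. Other markers serve only to describe the samples. Mef2a, Mef2d and Tbc1d4 were added later, beside genes of the same lists. Figures were drawn with matplotlib 3.10.9.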

Additional observations from a re-analysis of the deposited data

How the results depend on the processing

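Over 24 results on the 8 genes, 325 alternative values kept direction and side of the threshold, 35 lost a call, 6 gained one and 7 changed sign. The 325 include Slc2a3 and Slc2a10 in ShPkm1 against shScr and in the direct comparison, with 15 values for each gene and comparison. Both genes passed the filter only through ShPkm1 and had to differ, so these values are no sign of stability. The results that changed sign were Slc2a1 (0.12) and Slc16a1 (0.17) in ShPkm1 on log2(TPM + 1), Slc2a10 in ShPkm2 (0.07, and -0.63 to 1.28 over the libraries left out, negative without shScr replicate 2), and Slc16a3 in ShPkm2 against ShPkm1 under library totals (0.084), log2(FPKM + 1) (0.097), log2(FPKM + 0.1) (0.10) and log2(TPM + 1) (0.033). Among these, the TMM fit called Slc2a1 only, and the cause was not tested. Of 46 results on named genes of the lists, 729 alternative values kept their call, 6 lost it, all for Ppib, and 1 changed sign, Ppib in ShPkm2 on log2(TPM + 1) (0.13).

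The count of the 8 genes called in ShPkm1 against shScr was 4 with a mean of at least 50 counts, where only 5 of the 8 remain, and 4 on log2(TPM + 1). Leaving out each library gave 4 to 8 there, 5 to 6 in ShPkm2 against shScr and 4 to 6 in the direct comparison, and 6047 to 8285, 7231 to 8793 and 4939 to 7987 of all genes. Slc2a3 and Slc2a10, which passed the filter only through ShPkm1, are part of every such count for ShPkm1 against shScr and the direct comparison. They are also among the 4 on log2(TPM + 1). The scalings moved the median of all tested genes by 0.31 in ShPkm1 and 0.36 in ShPkm2 on log2(TPM + 1), where 78.1% and 75.7% of calls were higher.

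Deviations of same-numbered libraries correlated at -0.02, 0.04 and 0.11 over 10953 genes, so the numbers were not taken to pair libraries. With the replicate block 7922, 8566 and 6682 genes were called (7984, 8602 and 6703 without), and of the 8 genes 7, 5 and 5, the call lost being Bsg in ShPkm2 against ShPkm1 (adjusted p = 0.0803). Depth limits Slc2a3, Slc2a10 and Slc2a4, whose means were 14, 23.2 and 38.2 counts.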
